A study of Homo sapiens with 6 samples.

Results

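The mitochondrial ribosomal protein genes of HEK293 cells are described here across 6 RNA libraries. Members were the protein-coding genes whose symbol begins with MRPL or MRPS followed by a digit. Of 78 such symbols in the annotation, 76 had an identifier in the table of 57773 genes, 48 for the large subunit (MRPL) and 28 for the small subunit (MRPS). MRPS21 and MRPL45 were not analysed here. All 76 members passed the filter on low counts, as did 22010 genes in all, of which 14744 were protein-coding. The rule used symbols only and no measured value.

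HEK293 is an established cell line from human embryonic kidney. All 3 groups, the control included, were transiently transfected with PX459, a plasmid that carries Cas9 and puromycin resistance, were held in puromycin for 36 h from the day after transfection and were grown for 2 weeks in all before RNA was taken. EV cells received the plasmid without a guide, sgZNF146 cells received 4 guides against the zinc finger gene ZNF146, and sgZNF507 cells received 4 guides against the zinc finger gene ZNF507, with 2 libraries per group. The cells were populations and not clones, so a library can hold cells with and without a disrupted gene. By western blot, the study describes both proteins as essentially undetectable in the targeted cells. The series asked which transcripts depend on either zinc finger protein, and the question here is whether the mitochondrial ribosomal protein genes were among them.

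Mitochondria keep their own ribosome, which makes the few proteins encoded by mitochondrial DNA, all of them subunits of the respiratory chain and the ATP synthase. Its rRNAs come from mitochondrial DNA, whereas its proteins come from nuclear genes, are made in the cytosol and are imported. Some of these proteins have a bacterial counterpart and others are found only in mitochondria. The names follow subunits imperfectly. The proteins of MRPS18A and MRPS30 sit in the large subunit, and that of MRPS36 belongs to the 2-oxoglutarate dehydrogenase complex, so that by structure 50 members belong to the large subunit, 25 to the small and 1 to neither. Below, large and small subunit genes are those so named by symbol, unless structure is stated. By origin, 42 members are of the bacterial type and 33 are specific to mitochondria. MRPS18A and MRPS18B were placed with the second class, although they are related to bacterial S18. The 76 genes were spread over 21 chromosomes, with 8 on chromosome 2 and 7 each on chromosomes 1, 11 and 17.

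Some promoter letters were more frequent in members than in tested protein-coding genes, though no motif searched was found in all members. The promoters of 5 members are printed. 4 are examples of windows that hold the ETS or YY1 letters, and that of MRPL12 is an example that holds neither, all from members described below. The windows hold 250 bases before and 50 bases after the transcription start as RefSeq gives it on GRCh38.p14, each read 5′ to 3′ on the strand of the gene. Capitals mark the letters CCGGAAG, the core recognised by ETS factors such as GABPA, or its complement CTTCCGG, and in MRPL46 the letters AAGATGGCG, the core recognised by YY1.

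MRPS34, chr16:1773085-1773384, minus strand: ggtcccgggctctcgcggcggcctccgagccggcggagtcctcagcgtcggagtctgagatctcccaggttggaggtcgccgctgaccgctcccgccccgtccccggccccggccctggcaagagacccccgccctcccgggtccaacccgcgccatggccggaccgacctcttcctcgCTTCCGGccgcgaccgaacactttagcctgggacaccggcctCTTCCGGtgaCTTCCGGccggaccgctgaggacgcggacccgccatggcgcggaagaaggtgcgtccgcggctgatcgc

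MRPL46, chr15:88467339-88467638, minus strand: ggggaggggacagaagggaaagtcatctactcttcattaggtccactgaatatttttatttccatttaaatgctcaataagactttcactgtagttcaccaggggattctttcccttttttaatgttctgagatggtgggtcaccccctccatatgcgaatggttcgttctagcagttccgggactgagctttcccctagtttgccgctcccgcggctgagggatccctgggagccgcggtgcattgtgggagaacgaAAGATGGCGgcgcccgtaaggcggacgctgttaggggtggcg

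MRPL3, chr3:131502922-131503221, minus strand: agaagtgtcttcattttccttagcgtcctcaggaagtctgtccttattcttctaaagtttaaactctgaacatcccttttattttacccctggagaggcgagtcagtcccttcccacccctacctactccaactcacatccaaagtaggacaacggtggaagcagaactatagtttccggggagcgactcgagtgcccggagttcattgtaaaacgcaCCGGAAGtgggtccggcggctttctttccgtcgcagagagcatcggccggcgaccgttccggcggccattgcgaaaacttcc

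MRPS33, chr7:141014903-141015202, minus strand: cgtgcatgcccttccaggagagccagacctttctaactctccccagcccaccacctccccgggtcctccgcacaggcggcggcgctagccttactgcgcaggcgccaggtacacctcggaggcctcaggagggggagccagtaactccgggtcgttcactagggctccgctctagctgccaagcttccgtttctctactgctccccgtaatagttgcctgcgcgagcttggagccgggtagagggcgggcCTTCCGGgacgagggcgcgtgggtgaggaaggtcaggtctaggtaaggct

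MRPL12, chr17:81703117-81703416, plus strand: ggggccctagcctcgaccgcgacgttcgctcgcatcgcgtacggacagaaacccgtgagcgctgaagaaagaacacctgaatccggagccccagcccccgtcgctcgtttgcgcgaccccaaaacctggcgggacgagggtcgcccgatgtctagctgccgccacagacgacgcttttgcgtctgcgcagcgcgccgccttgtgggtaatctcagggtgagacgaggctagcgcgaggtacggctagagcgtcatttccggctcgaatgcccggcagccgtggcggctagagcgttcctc

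MRPS34, the highest small subunit gene per length, held the ETS letters 3 times, beginning 71, 29 and 19 bases before the start. In MRPL3 they began 32 bases before the start. In MRPS33, which has a second listed start, they began on the first base of the transcript. The YY1 letters of MRPL46 began 8 bases after the start, and the window of MRPL46 overlaps that of MRPS11 on the other strand. The window of MRPL12 held none of the letters searched, and that of MRPL41, the highest large subunit gene per length, held no ETS, YY1 or NRF1 letters.

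RefSeq listed a promoter for 67 of the 76 members, 11 of them with more than 1 start. Motifs were searched on both strands, and a gene counted once if any of its windows held the letters. The ETS letters were found in 29 members, or 43.3%, against 20.4% of the 11793 tested protein-coding genes with a listed promoter and 12.2% of all 27305 genes listed. The YY1 letters were found in 13 members, or 19.4%, against 4.16% of the tested coding genes and 2.14% of all. The letters GCATGCGC of NRF1, a regulator of nuclear genes for mitochondria, were found in 6 members, or 8.96%, against 5.88% and 3.68%. The share with at least 1 of these 3 motifs was 58.2% of members and 27.5% of tested coding genes. The letters CCAAT were found in 22 members, or 32.8%, against 43.1% of tested coding genes, and TATAAA in 3 members, or 4.48%, against 9.22%. The large and small subunit genes carried the ETS letters at 43.9% and 42.3%. A match of letters is a description of the window and not of binding.

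Members also often had the start of another gene close by, although sharing of a promoter was not tested. In the GRCh37 annotation, a protein-coding gene on the opposite strand began within 1000 bp of 27 members, or 35.5%, compared with 16.4% of the tested protein-coding genes. MRPL46 and MRPS11 were each other's neighbour, 63 bp apart. MRPL36 began 41 bp from NDUFS6 and MRPL47 41 bp from NDUFB5, both of them genes of respiratory complex I. MRPS12 began 181 bp from SARS2, the mitochondrial seryl-tRNA synthetase. MRPL49 began 6 bp from FAU, which encodes a protein of the cytosolic ribosome. The starts of MRPL43 and of TWNK, the mitochondrial DNA helicase, overlapped by 148 bp.

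**Figure D1:**
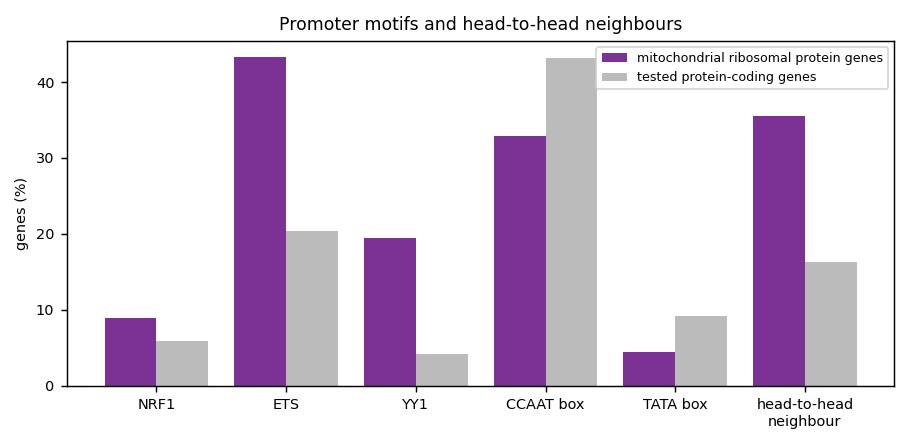
Share of genes (%, vertical axis) whose promoter window holds each motif or whose start has a protein-coding neighbour on the opposite strand within 1000 bp, for members (purple) and tested protein-coding genes (grey). The ETS, YY1 and neighbour bars of the members stand above the grey bars, at 43.3%, 19.4% and 35.5%, and the CCAAT and TATA bars below them.

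Library totals ranged from 22724439 to 28524025 counts. In the guide-targeted genes, ZNF507 was measured at 72.0 and 75.5 CPM in EV, 71.3 and 73.3 CPM in sgZNF146 and 47.2 and 48.7 CPM in sgZNF507. ZNF146 was measured at 115 and 105 CPM in EV, 99.2 and 103 CPM in sgZNF146 and 88.4 and 101 CPM in sgZNF507. Both sgZNF507 libraries were below all others for ZNF507, and the sgZNF146 libraries were below EV for ZNF146 by a small margin, although a guide changes the coding sequence and need not lower the RNA. Both sgZNF507 libraries were also below EV for ZNF146, so a lower ZNF146 RNA was not particular to sgZNF146. CPM here means counts scaled to library sizes that were adjusted by edgeR's TMM method. The HEK293 markers PAX2 (139 to 191 counts), NEFM (1669 to 2143), VIM (23327 to 31712) and KRT18 (1949 to 2679) were present in all 6 libraries. The blood and liver markers PTPRC (1 to 5 counts) and ALB (1 to 6) were near 0 and HBB was at 0, while the fibroblast genes COL1A1 (1495 to 1933) and COL3A1 (143 to 247) were detected in all libraries. Per the study's methods, each group was disrupted in duplicate, so p-values measure the spread between these duplicates.

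Together the members took 0.412% to 0.428% of all counts. The level of a gene is given as CPM per kb of its exons, the only scale on which genes are compared with each other. The 48 large subunit genes had a median of 22.1 CPM per kb and the 28 small subunit genes one of 9.52. With the length of the canonical transcript in place of all annotated exons, these medians were 41.0 and 24.6. Within a gene the 6 libraries lay close together, with a median coefficient of variation of 5.07% in the large and 3.83% in the small subunit. MRPL52 varied least, at 1.14%.

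The highest large subunit gene was MRPL41, which encodes a protein specific to mitochondria, at 128 ± 6.49 CPM per kb (SD, n = 6 libraries). It was followed by MRPL12, the protein of the stalk that meets translation factors, at 97.5 ± 6.52. MRPL51 stood at 77.0 ± 3.43 and MRPL14, a protein of the face between the subunits, at 68.0 ± 3.13. MRPL41 ranged from 119 to 136 CPM per kb and MRPL12 from 90.7 to 108, so these neighbours did not overlap, whereas the lowest MRPL51 library (71.8) was below the highest MRPL14 library (73.8). The order depended on the length used. Per kb of the canonical transcript MRPL4 was first at 136 and MRPL41 second at 128, while MRPL12 took place 8 and MRPL14 place 13 of 48.

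In the small subunit, MRPS34 was highest at 127 ± 7.51 CPM per kb and MRPS26 second at 89.7 ± 3.11, both of them specific to mitochondria. MRPS2, a counterpart of bacterial S2, followed at 50.9 ± 2.33. MRPS18A, small by symbol but with its protein in the large subunit, stood at 43.5 ± 1.54. MRPS34 (117 to 134) did not overlap MRPS26 (84.8 to 94.1), and MRPS26 did not overlap MRPS2 (48.5 to 55.1). MRPS34 and MRPL41 overlapped each other. On the canonical scale MRPS34 was again first, at 139 CPM per kb, and MRPS7 second, ahead of MRPS26 and MRPS2.

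The lowest large subunit gene was MRPL30, at 0.0778 ± 0.0273 CPM per kb. MRPL42 stood at 3.32 ± 0.210, MRPL46 at 4.27 ± 0.230 and MRPL50 at 5.67 ± 0.213. The lowest small subunit genes were MRPS22 at 2.26 ± 0.0580, MRPS24 at 2.91 ± 0.211, MRPS27, a pentatricopeptide repeat protein, at 3.88 ± 0.135, and MRPS6 at 3.98 ± 0.277. Several of these places came from the exon length used. MRPS22 had 16385 bases of annotated exon against 1205 in its canonical transcript, and moved from place 75 of 76 to place 42 on the canonical scale. MRPS27 moved from place 72 to 47 and MRPL46 from 70 to 45, whereas MRPL30 was last and MRPL42 at 73 and 75. In order of level, the ranges of 34 of 47 neighbouring pairs in the large subunit and of 14 of 27 in the small subunit overlapped.

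MRPL30 rested on few reads. It had 10 and 14 counts in EV, 13 and 8 in sgZNF146 and 4 and 9 in sgZNF507. Another protein-coding gene of the annotation, ENSG00000241962, overlaps it on the same strand and held 20 to 44 counts. Reads that fit both genes can be left out by the counting, and their number is not known. In all, 23 members overlapped another gene on the same strand and 39 one on the opposite strand. MRPL53 (669 counts over 6 libraries), MRPS24 (1175) and MRPS17 (1716) were likewise low and overlap such genes on their strand, CCDC142, URGCP-MRPS24 and NIPSNAP2, so their levels are uncertain. The same holds for MRPS6 and MRPL46, named above among the lowest. On their strand they overlap SLC5A3, with 0 counts in each library, and ENSG00000173867, with 44 to 65.

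**Figure D2:**
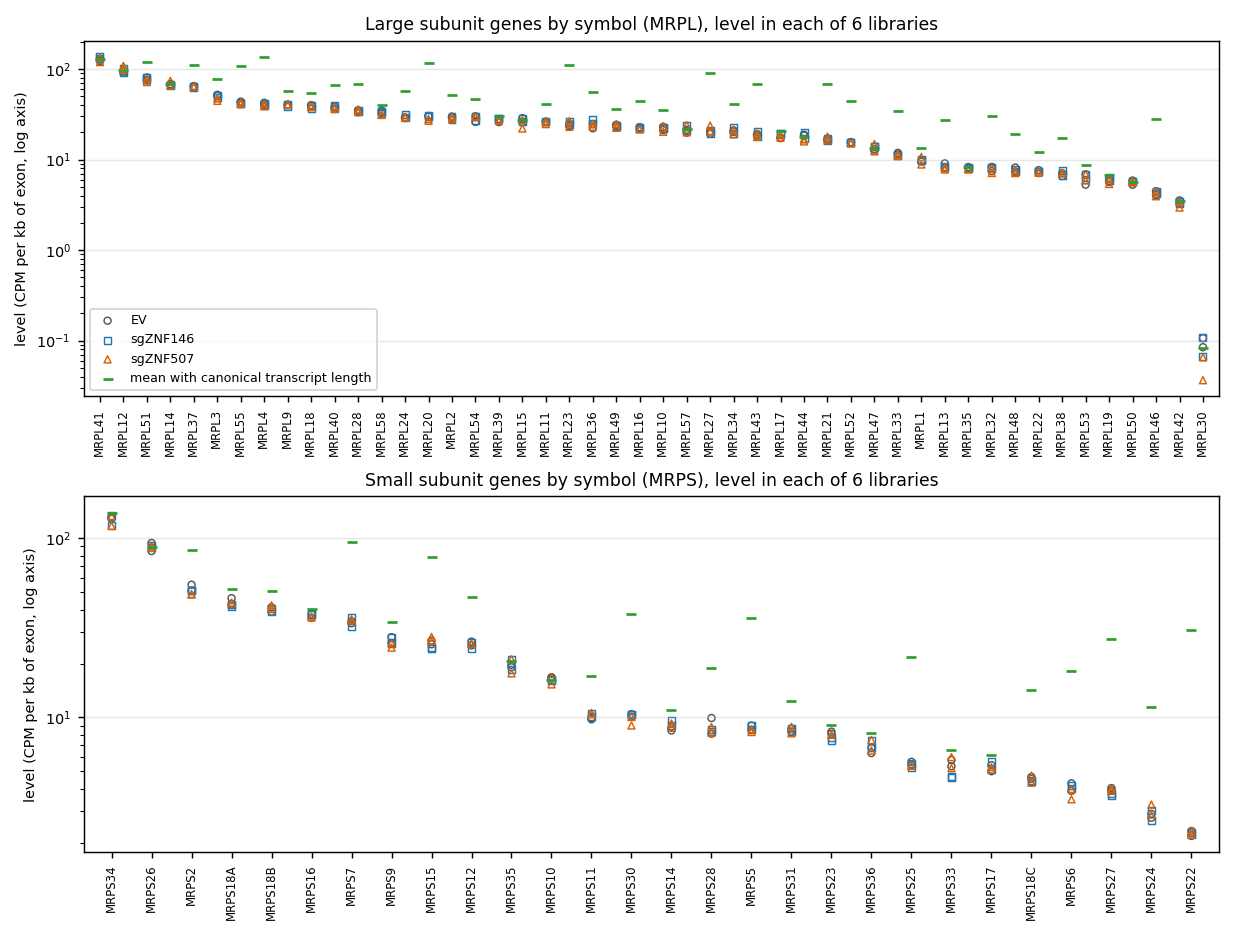
Level of each of the 76 members in CPM per kb of exon (log axis), with 1 open symbol per library (EV circles, sgZNF146 squares, sgZNF507 triangles) and a green bar for the mean with the canonical transcript length. The symbols of a gene lie nearly on top of each other, from MRPL41 at 128 to MRPL42 at 3.32 in the upper panel, with MRPL30 far below at 0.0778.

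The genes listed by role began with 3 of the small subunit. MRPS12, the counterpart of the S12 protein at the decoding site, was measured at 44.3 and 46.5 CPM in EV, 45.9 and 42.5 in sgZNF146 and 45.0 and 45.2 in sgZNF507. MRPS5 was measured at 117 and 124, 118 and 124, and 114 and 118 CPM in the same order. MRPS7, a protein of the head of the small subunit, was measured at 112 and 115, 107 and 120, and 118 and 116 CPM. The groups overlapped in all comparisons of these 3 genes, except that both sgZNF507 libraries were above EV for MRPS7, by 0.04 on the log2 scale (SE 0.07, unadjusted p = 0.528, edgeR).

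Of the 3 paralogs of bacterial S18, MRPS18A had 57.9 to 64.1 CPM, MRPS18B 68.3 to 74.2 CPM and MRPS18C 21.1 to 23.0 CPM over the 6 libraries. MRPS18C is the one that takes the place of S18 itself, and it was the lowest of the 3 also per length, at 4.51 ± 0.162 CPM per kb against 43.5 ± 1.54 and 40.4 ± 1.24. Its annotated exons span 4866 bases and its canonical transcript 1550, and on the canonical scale the gap was smaller, at 14.2 against 51.8 and 50.8 CPM per kb. Their log2 fold changes against EV lay between -0.07 and 0.05 in both disruptions.

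In the large subunit, MRPL4 had the most counts of any member, at 164 and 173 CPM in EV, 168 and 160 in sgZNF146 and 167 and 159 in sgZNF507. MRPL11, at the base of the stalk, had 62.6 to 67.1 CPM. MRPL23 and MRPL24, which lie around the exit of the peptide tunnel, had 68.4 to 78.9 CPM and 48.8 to 53.8 CPM. All 4 genes overlapped between each disruption and EV.

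Sums and ratios place members by symbol, so that the small subunit holds MRPS18A, MRPS30 and MRPS36. Sums by structure are not given. Summed over the large subunit, the members reached 2615 and 2663 CPM in EV, 2666 and 2648 in sgZNF146 and 2631 and 2582 in sgZNF507. The small subunit reached 1598 and 1637 CPM in EV, 1582 and 1597 in sgZNF146 and 1593 and 1592 in sgZNF507. For the large subunit each disruption overlapped EV, and both sgZNF507 libraries were below both sgZNF146 libraries. For the small subunit all 4 libraries of the disruptions were below both EV libraries, the higher sgZNF146 library only just. In CPM per kb, the small subunit summed to 638 and 656 in EV, 642 and 632 in sgZNF146 and 644 and 630 in sgZNF507. Both disruptions overlapped EV on this scale. With canonical transcript lengths it summed to 1035 and 1058 in EV, 1029 and 1027 in sgZNF146 and 1040 and 1025 in sgZNF507. There both sgZNF146 libraries were below EV, and sgZNF507 overlapped EV. The ratio of the large to the small subunit by symbol, per kb and summed, was 2.03 ± 0.00668 in EV, 2.09 ± 0.00544 in sgZNF146 and 2.06 ± 0.0138 in sgZNF507 (SD, n = 2). The groups did not overlap in this ratio, at 2.04 and 2.03, 2.09 and 2.10, and 2.07 and 2.05. With canonical transcript lengths the ratios were 2.27 and 2.28 in EV, 2.35 and 2.33 in sgZNF146 and 2.31 and 2.28 in sgZNF507, so that sgZNF507 overlapped EV and sgZNF146 remained above it. With 2 libraries against 2, an exact two-sided permutation test cannot give a p below 0.333, so sums and ratios are given as values without a test.

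None of the 76 members passed an adjusted p of 0.05 in sgZNF146 against EV, in which edgeR's quasi-likelihood test called 0.0% of all 22010 genes. None passed in sgZNF507 against EV, in which it called 0.182% of all genes, nor in sgZNF507 against sgZNF146, in which it called 0.173%. The smallest adjusted p of a member was 1.00 in each comparison. At an unadjusted p under 0.05 there were 2 members in sgZNF146 against EV beside 2.43% of all genes, 2 in sgZNF507 against EV beside 3.39% and 3 in sgZNF507 against sgZNF146 beside 4.03%. With the replicate number as a block these counts were 3, 7 and 7 of 76 members beside 5.44%, 7.66% and 8.68% of all genes, and 0 members passed the adjusted threshold beside 0.15%, 0.55% and 0.891%. DESeq2 called 0 members beside 0.0%, 0.211% and 0.192% of the genes to which it gave an adjusted p. At an unadjusted p under 0.05 it had 1, 0 and 1 members beside 0.415%, 0.773% and 0.966% of its 36846 genes, which include those with few counts. The comparisons against EV share their EV libraries, so their values are not independent.

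The intervals of the members were narrow. The 95% interval of the log2 fold change had a median width of 0.17 to either side of the estimate in the members. This width was 0.22 in tested protein-coding genes and 0.32 in all genes, which include noncoding ones. In each of the 3 comparisons the interval lay within a change of 1.5-fold for 75 of 76 members, all but MRPL30. The shares over all genes were 60.7%, 60.2% and 59.5%. These intervals hold for the difference between these libraries. In bulk RNA, fewer expressing cells and less RNA per cell cannot be told apart.

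The median log2 fold change of the large subunit genes was 0.01 in sgZNF146 against EV, -0.02 in sgZNF507 against EV and -0.04 in sgZNF507 against sgZNF146. In the last comparison 36 of the 48 had a negative and 12 a positive estimate, beside 11276 negative of all 22010 genes. With single libraries left out, the median of that comparison lay on both sides of 0, as given below. For the small subunit genes the medians were -0.0048, -0.01 and 0.00095, and those of all genes tested were -0.0013, -0.0032 and -0.0040. Genes of the bacterial type had medians of 0.0031 and -0.03 against EV in sgZNF146 and sgZNF507, and genes specific to mitochondria had medians of -0.0019 and -0.02. Placing genes by structure and not by symbol left the medians of the large subunit at 0.01, -0.03 and -0.04.

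Groups that did not overlap were no more frequent in members than in all genes for sgZNF146 against EV. Both sgZNF146 libraries were above both EV libraries in 9 members, or 11.8%, beside 14.0% of all genes, and below them in 11, or 14.5%, beside 14.6%. Both sgZNF507 libraries were above EV in 6 members, or 7.89%, beside 14.0%, and below in 15, or 19.7%, beside 15.3%. Against sgZNF146 they were above in 6 members beside 15.5% of all genes and below in 16, or 21.1%, beside 16.5%.

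**Figure D3:**
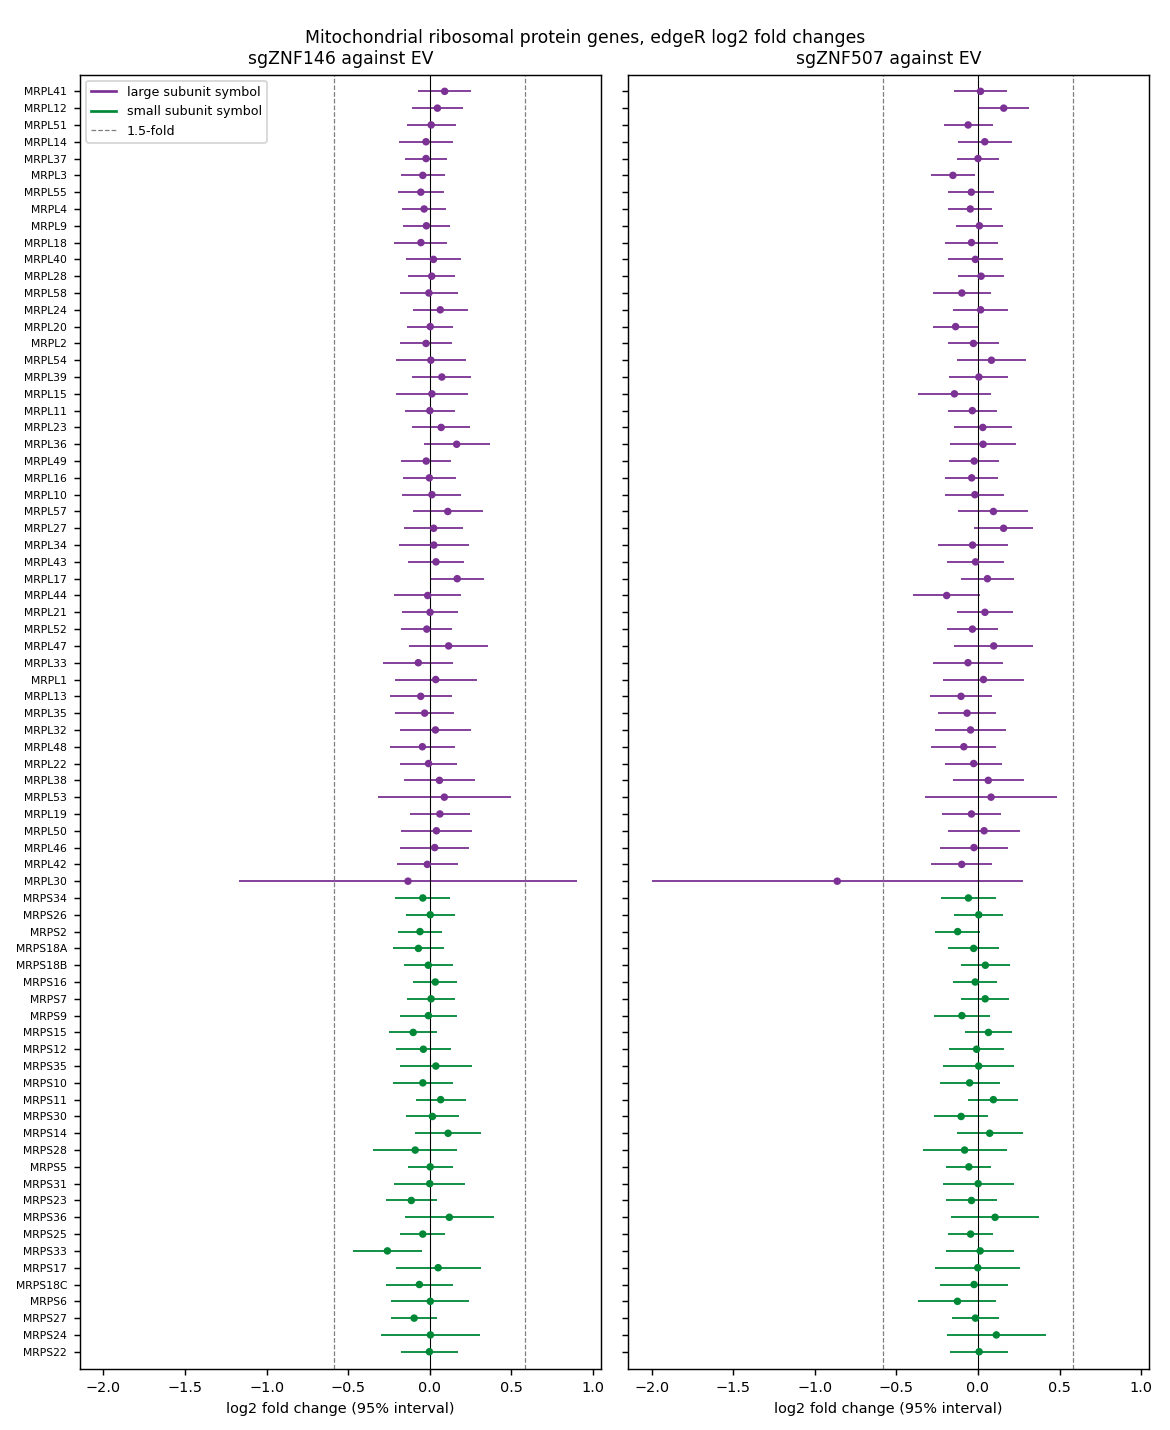
Log2 fold change of each member against EV (points) with its 95% interval (lines) from edgeR, for sgZNF146 (left) and sgZNF507 (right), large subunit symbols in purple and small in green, on one scale. All intervals but that of MRPL30 stay inside the dashed lines at a change of 1.5-fold.

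In sgZNF146 against EV, the member with the smallest p was MRPS33, which encodes a small subunit protein specific to mitochondria (GRCh37 chr7:140702410-140715028, minus strand). It was measured at 28.0 and 30.4 CPM in EV, 24.3 and 24.5 in sgZNF146 and 27.3 and 31.5 in sgZNF507. Both sgZNF146 libraries were below the other 4. The log2 difference from EV was -0.26 (SE 0.10, 95% interval -0.47 to -0.05, unadjusted p = 0.0206, adjusted p = 1.00, edgeR), and that between sgZNF507 and sgZNF146 was 0.27 (SE 0.10, unadjusted p = 0.0159, adjusted p = 1.00).

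Most genes around MRPS33 had estimates of the same sign, a comparison added after its values were seen. Of the 44 tested protein-coding genes within 5 Mb of it, 37 had a negative and 7 a positive log2 fold change in sgZNF146 against EV, with a median of -0.17, and 0 passed the adjusted threshold. Of all 14744 tested protein-coding genes, 7488 were negative in that comparison. In sgZNF507 against EV the median of the 44 genes was -0.0098. In sgZNF507 against sgZNF146 it was 0.15, with 38 positive, beside 7248 of the 14744. The part of the region in the value of MRPS33 was not tested.

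On the positive side, MRPL17, a counterpart of bacterial L17, was measured at 45.2 and 45.1 CPM in EV and 50.9 and 50.7 CPM in sgZNF146. The groups did not overlap, and the log2 difference was 0.17 (SE 0.08, unadjusted p = 0.0436, adjusted p = 1.00, edgeR). MRPL36 followed with 34.4 and 30.9 CPM in EV and 38.5 and 34.7 CPM in sgZNF146, a log2 difference of 0.17 (SE 0.09, unadjusted p = 0.100). Its higher EV library was just under its lower sgZNF146 library.

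The other members with the smallest p had differences of at most 0.11 in size. MRPL41 (0.09), MRPS14 (0.11) and MRPL57 (0.11) had positive values, and MRPL57 overlapped between the groups. MRPS23 (-0.11), MRPS15 (-0.10), MRPS27 (-0.10) and MRPS2 (-0.06) had negative values with groups that did not overlap. Their unadjusted p ranged from 0.146 for MRPS23 to 0.359 for MRPS2.

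In sgZNF507 against EV, the smallest p belonged to MRPL3, a protein near the peptidyl transferase centre (GRCh37 chr3:131181056-131221827, minus strand). It was measured at 138 and 141 CPM in EV, 138 and 132 in sgZNF146 and 121 and 129 in sgZNF507. Both sgZNF507 libraries were below the other 4. The log2 difference from EV was -0.15 (SE 0.06, 95% interval -0.29 to -0.02, unadjusted p = 0.0300, adjusted p = 1.00, edgeR).

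MRPL20, which binds the rRNA of the large subunit, showed the same order at 83.8 and 83.3, 84.4 and 83.1, and 77.7 and 74.3 CPM in EV, sgZNF146 and sgZNF507. Its log2 difference from EV was -0.14 (SE 0.06, unadjusted p = 0.0542). MRPL44, whose protein has the fold of an RNase III, was measured at 31.1 and 31.8, 33.5 and 28.9, and 26.8 and 28.3 CPM, a difference from EV of -0.19 (SE 0.09, unadjusted p = 0.0649). Both sgZNF507 libraries of MRPL20 and MRPL44 were below the other 4 libraries.

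MRPS2 stood at 127 and 136 CPM in EV, 126 and 127 in sgZNF146 and 121 and 120 in sgZNF507, a log2 difference between sgZNF507 and EV of -0.12 (SE 0.06, unadjusted p = 0.0690). For MRPL30 the estimate was -0.86 with a 95% interval from -2.0 to 0.27 and an unadjusted p of 0.125, on the few counts given above.

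The members with the smallest p on the positive side were MRPL12 and MRPL27, the counterpart of bacterial L27 near the peptidyl transferase centre. MRPL12 was measured at 91.5 and 95.9 CPM in EV, 101 and 92.4 in sgZNF146 and 109 and 100.04 in sgZNF507, a log2 difference between sgZNF507 and EV of 0.16 (SE 0.07, unadjusted p = 0.0484, adjusted p = 1.00, edgeR). MRPL27 was measured at 58.2 and 61.8, 59.1 and 63.0, and 62.1 and 71.6 CPM, a difference of 0.16 (SE 0.08, unadjusted p = 0.0819). Both sgZNF507 libraries were above EV for these genes, while the sgZNF146 libraries overlapped with sgZNF507. MRPS11 (0.09), MRPL57 (0.09) and MRPS15 (0.06) followed with unadjusted p of 0.204, 0.357 and 0.361.

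Between the disruptions, MRPS15, whose bacterial counterpart binds the small rRNA early in assembly, was measured at 70.6 and 69.3 CPM in sgZNF146 and 80.5 and 76.4 CPM in sgZNF507, around 76.8 and 73.3 CPM in EV. Its difference was 0.17 (SE 0.07, unadjusted p = 0.0307, adjusted p = 1.00, edgeR). On the negative side stood MRPL20 (-0.14), MRPL44 (-0.18) and MRPL3 (-0.11), with unadjusted p of 0.0498, 0.0824 and 0.101 in edgeR.

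The rRNAs to which these proteins bind spanned a far wider range. MT-RNR1, the small rRNA, had 38578 and 46240 counts in EV, 3379 and 3985 in sgZNF146 and 21744 and 1475 in sgZNF507. MT-RNR2, the large rRNA, had 28730 and 33331, 3252 and 3971, and 16337 and 1458 counts. MT-TV, the mitochondrial valine tRNA that is part of the large subunit, had 189 and 169, 63 and 53, and 50 and 6 counts.

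Both sgZNF146 libraries were far below EV for the rRNAs, and the sgZNF507 libraries lay far apart from each other, with replicate 1 between EV and sgZNF146 and replicate 2 the lowest of all. The log2 differences from EV in sgZNF146 were -3.47 for MT-RNR1 (SE 0.81), -3.04 for MT-RNR2 (SE 0.73) and -1.57 for MT-TV (SE 0.42), with adjusted p = 1.00 in edgeR. In sgZNF507 they were -1.70, -1.64 and -2.63, with a smallest adjusted p of 0.0603 for MT-TV. With the replicate block, all 3 passed the adjusted threshold as lower in both comparisons against EV. Ribosomal RNA was depleted from these libraries and ribosomal reads were removed before counting, and the part of these steps in the values was not tested.

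The 13 mRNAs of mitochondrial DNA, the templates of this ribosome, summed to 26103 and 28360 CPM in EV, 27012 and 25225 in sgZNF146 and 21892 and 22813 in sgZNF507. In sgZNF507 against EV their median log2 fold change was -0.31, 13 of 13 had an unadjusted p under 0.05 on the lower side, 0 passed the adjusted threshold (smallest adjusted p = 0.0796, edgeR) and 11 passed with the replicate block. In sgZNF146 against EV their median was -0.02 and 0 passed with or without the block.

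**Figure D4:**
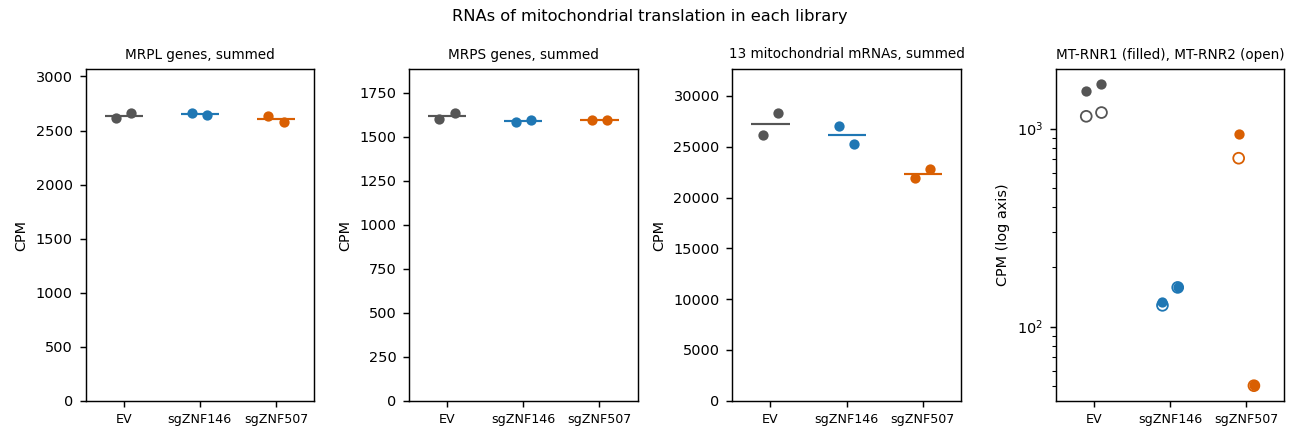
Summed CPM of the large and small subunit members and of the 13 mitochondrial mRNAs (linear axes from 0) and CPM of MT-RNR1 and MT-RNR2 (log axis), with 1 point per library and a line at the group mean. The member sums stay between 2582 and 2666 and between 1582 and 1637 CPM, while MT-RNR1 stands at 1550 and 1673 CPM in EV, 133 and 158 CPM in sgZNF146 and 944 and 50.9 CPM in sgZNF507.

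The other nuclear genes of mitochondrial translation stood like the members. None of the 5 tested genes for mitoribosomal proteins under other symbols (DAP3, PTCD3, CHCHD1, AURKAIP1 and GADD45GIP1), of the 24 tested genes for assembly and rRNA modification, or of the 16 for translation factors, mRNA stability and membrane insertion passed the adjusted threshold in any comparison, with the replicate block included. Their medians against EV were -0.03, -0.02 and -0.02 in sgZNF146 and 0.00045, 3.4e-05 and -0.02 in sgZNF507. At an unadjusted p under 0.05 the single gene in sgZNF507 against EV was GUF1, the mitochondrial counterpart of the elongation factor LepA, at 49.9 and 47.8 CPM in EV and 39.4 and 43.9 CPM in sgZNF507 (log2 difference -0.23, unadjusted p = 0.0162, edgeR).

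The cytosolic ribosome gave a second reference. Of 80 tested genes for its proteins, 0 passed the adjusted threshold in any comparison. Their median was 0.0025 in sgZNF146 against EV and -0.05 in sgZNF507 against EV, where 7 had an unadjusted p under 0.05 on the lower side and 2 passed the adjusted threshold with the replicate block. In sgZNF507 against sgZNF146 the median was -0.055. There 11 had an unadjusted p under 0.05 in edgeR on the lower side, and 2 passed with the replicate block.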

How the data were processed

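RNA of 6 HEK293 libraries was sequenced as paired-end, strand-specific, rRNA-depleted libraries. The authors clipped reads with the Fastx Toolkit, removed ribosomal reads with Bowtie, mapped the rest to hg19 with TopHat2 and counted them per Ensembl gene with featureCounts. The strand setting of the counting is not given in the sources used here. The deposited values are raw counts per gene, with no normalization and no pooling. Library totals ranged from 22724439 to 28524025 counts. Reads carry no molecular identifiers, so intervals cover the spread between libraries and not PCR duplication.

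Symbols, exon lengths and coordinates came from GENCODE on GRCh37, which matched 96.1% of identifiers. Levels per kb used the union of annotated exons. Promoters came from RefSeq on GRCh38.p14 and were matched by symbol. The test was edgeR 4.0.16 in R 4.3.3, with filterByExpr, TMM, glmQLFit on all 6 libraries and glmQLFTest, with Benjamini-Hochberg adjustment over all 22010 genes and a threshold of 0.05. Standard errors derive from the F statistics, so they are approximations. DESeq2 1.42.0, other normalizations and filters, the 4 libraries compared, a replicate block and leaving out each library were alternatives. Deviations of same-numbered libraries correlated across genes at 0.138 (EV and sgZNF146), 0.176 (EV and sgZNF507) and 0.145 (sgZNF146 and sgZNF507). The replicate numbers come from the labels. Only the fit with the replicate block used them as pairs, and the main fit did not. Only the edgeR fit, with and without the replicate block, was tested on simulated counts, with changes larger than the estimates of the members. Plots were made in Python 3.11.15 with matplotlib 3.10.9.

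The members, the gene lists and the rule for named genes were chosen with earlier results of these data known. Named were members past the threshold, the 5 with the smallest p in each direction against EV and the 3 between the disruptions, the 4 highest and 4 lowest of each subunit per length, and genes listed by role. Guide sequences, protein levels and reads with indels were not used here.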

Additional observations from a re-analysis of the deposited data

How the results depend on the processing

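No member passed the adjusted threshold under any alternative, by edgeR or DESeq2. With the replicate block the counts at an unadjusted p under 0.05 were 3 in sgZNF146 against EV, 7 in sgZNF507 against EV and 7 in sgZNF507 against sgZNF146, beside 5.44%, 7.66% and 8.68% of all genes, and the smallest adjusted p of a member were 0.357, 0.307 and 0.114. The block moved the genes called over the whole table from 0 to 33, from 40 to 121 and from 38 to 196, and no filter moved them to 19, 101 and 112. Leaving out each library in turn, which assumes that the lone library of a group varies like the others, the large subunit medians ranged from -0.015 to 0.023 in sgZNF146 against EV, from -0.042 to 0.0036 in sgZNF507 against EV and from -0.034 to 0.0018 in sgZNF507 against sgZNF146. The small subunit medians ranged from -0.044 to -0.0048, from -0.027 to -0.0026 and from -0.0048 to 0.036. MRPL57 in sgZNF507 against EV ranged from -0.04 without sgZNF507 replicate 1 to 0.23 without sgZNF507 replicate 2. The other 336 values of single members kept their direction and their side of the threshold. These values cover only the members named for the smallest p in each direction of a comparison. That choice favours estimates away from 0. Other members, such as MRPL37 with an estimate of 3.4e-05 in sgZNF507 against EV, were not part of this count. With canonical transcript lengths the summed levels were 2382, 2405 and 2366 CPM per kb in the large and 1046, 1028 and 1032 in the small subunit (EV, sgZNF146, sgZNF507), with ratios of 2.28, 2.34 and 2.29, since the lengths are shorter, and the ratios of sgZNF507 and EV then overlapped. Scaled to all counts and not by TMM, sgZNF146 had 1313 and 628 CPM per kb in place of 1332 and 637. Its small subunit sums were then 622 and 634 CPM per kb, below 638 and 652 in EV. Those of sgZNF507, at 653 and 640, overlapped EV. Placing genes by structure was chosen after seeing the data. The causes of these shifts were otherwise not tested. The design of 2 libraries a group limits single genes with few counts, above all MRPL30.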

Other observations

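Copies of the member genes were nearly silent in the counts. There were 73 processed or duplicated pseudogenes named after an MRPL or MRPS gene, with copies of MRPS21 and MRPL45 included. Of these, 47 had no count in any library, and all 73 together held 0.238% of the counts of the members. MRPS17P1 had 67 and 66 counts in EV, 86 and 77 in sgZNF146 and 64 and 63 in sgZNF507, or 24.7% of the total of MRPS17 over the 6 libraries. Its sgZNF146 libraries were above the other 4, with a log2 difference from EV of 0.35 (SE 0.20, unadjusted p = 0.114, edgeR). MRPS31P5 held 13.7% of the total of MRPS31, and MRPL42P1 3.91% of that of MRPL42. Reads that fit a gene and its copy equally well can be split or left out, so the levels of MRPS17 and MRPS31 are uncertain.

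Of the transcripts named as antisense to or divergent from a member, 3 passed the filter on low counts. MRPL20-AS1, on the strand opposite to MRPL20, had 1078 and 1111 counts in EV, 1009 and 1024 in sgZNF146 and 1047 and 1160 in sgZNF507, and MRPL20-DT had 155 to 192 counts over the 6 libraries. MRPS30-DT had 25 and 24 counts in EV, 37 and 34 in sgZNF146 and 37 and 22 in sgZNF507. None of these 3 passed the adjusted threshold in edgeR (adjusted p = 1.00), and the groups of MRPL20-AS1 overlapped between sgZNF507 and EV in CPM. Other noncoding transcripts that overlap members on their strand were counted too, such as ENSG00000270696 at MRPL19 with 244 to 356 counts and ENSG00000249602 at MRPL9 with 40 to 58. For the 27 members with a protein-coding neighbour on the opposite strand, 0 of these neighbours passed the adjusted threshold in any comparison.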
